A study of Mus musculus with 6 samples.

Results

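Cholesterol is built from acetyl-CoA through the mevalonate pathway, which also feeds the isoprenoids that anchor small GTPases to membranes. The transcription factor SREBP2 switches on most enzymes of the route when sterols in the endoplasmic reticulum fall, while INSIG proteins hold it back when sterols are plentiful. Liver X receptors answer to excess sterol, and lysosomal carriers release the cholesterol that arrives with lipoproteins. In tumour cells these genes are of interest because several intermediates of the route, among them 7-dehydrocholesterol, bear on lipid peroxidation.

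The 32 genes described here were chosen by name for their place in the pathway and cover 8 early steps from acetyl-CoA to the farnesyl and geranylgeranyl diphosphates, 12 late enzymes from squalene to cholesterol, 8 genes of sterol sensing and transcription, and 4 genes of sterol transport and storage. All 32 were found by symbol among the 27179 genes of the series. RNA came from B16F10, an established wild-type mouse melanoma line, after 6 h with 0.01% ozonated olive oil (OZO, 3 libraries) or with 0.01% olive oil (OLO, 3 libraries), its precursor without ozone. Every library thus came from oil-treated cells. The study describes the libraries of a group as independent experiments.

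The values analysed here are one mean per gene over all 6 libraries, OZO and OLO together, so they describe the level of each gene in oil-treated cells and do not separate the treatments. OZO was not compared with OLO, and no spread between libraries stands behind a value, so no difference between genes was tested and each value is printed without an error. The level of a gene is given in CPM, its read count scaled to a common library size, as the authors' mean on the log2 scale raised back to a linear one. Levels of the members are compared with each other in CPM per kb, after division by the length of all annotated exons joined, while CPM and read numbers show how many reads a gene had. A level of 1 CPM stood for 19.6 reads per library on average, and the geometric mean of the library sizes was 19641946 reads. All 7 melanocyte markers had reads, with Sox10 at 35.6 CPM per kb and Tyrp1 at 2062 as the lowest and the highest per kb, whereas no keratinocyte marker reached 1 CPM and Krt5 had no read. Pdgfra, a fibroblast gene, was at 3.28 CPM, and the 3 leukocyte markers summed to 0.619 CPM.

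The members were abundant in these cells. Of the 32 genes, 31 reached 1 CPM (96.9%), against 59.7% of the 19227 genes with reads and an annotated length, and 30 lay above the median of those genes. The median member stood at 12.7 CPM per kb, against 1.47 for all genes with reads, and had 79.7% of them below it. Of the 11477 genes with a length and at least 1 CPM, 9546 also lay above the median of all genes with reads. Among the genes of at least 1 CPM the median was 7.26 CPM per kb. Within the set the levels ran from 0.363 CPM per kb for Nr1h3 to 54.6 for Cyp51, a ratio of 150.6 (264.4 when not divided by length). These are descriptions of one pooled value per gene, and nothing is said to be particular to this set.

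**Figure D1:**
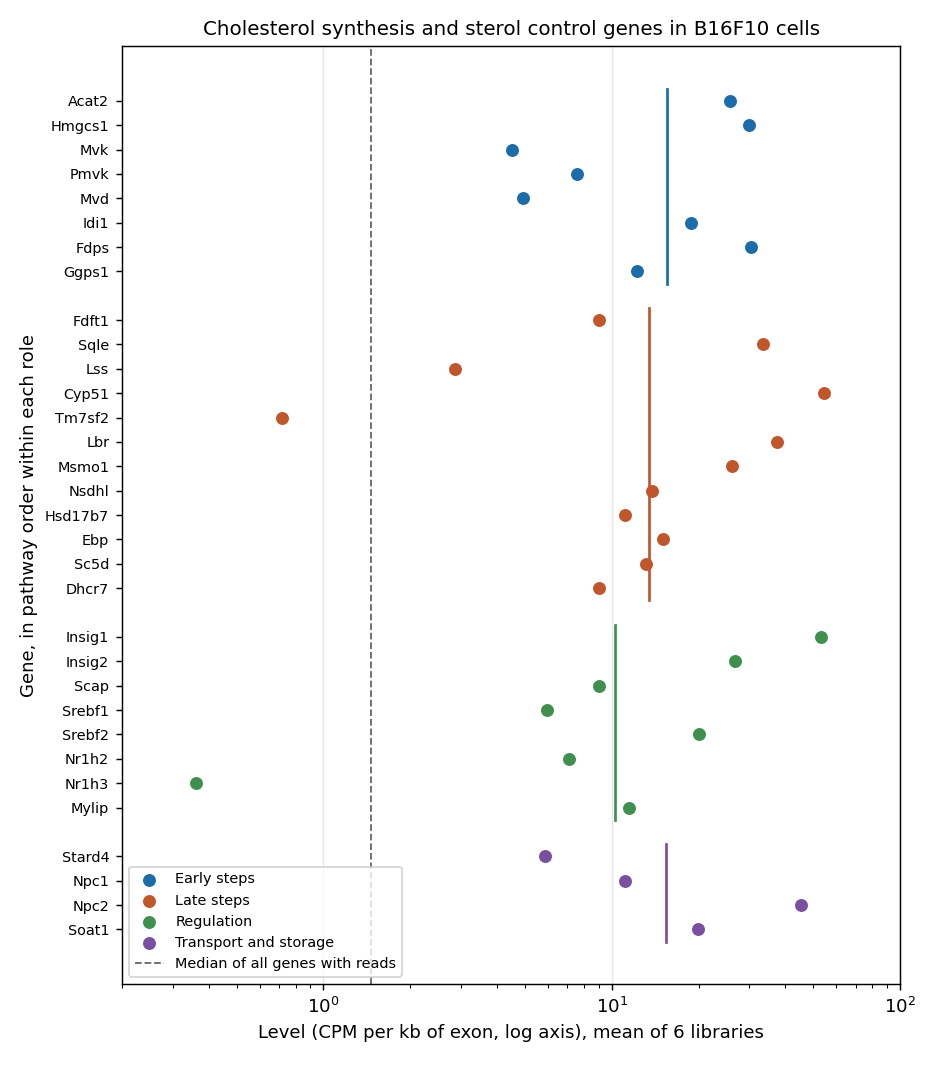
Level of each of the 32 genes in CPM per kb of exon (horizontal log axis), as the mean over the 6 libraries, with genes in pathway order within each role. Solid lines mark the median of a role and the dashed line the median of all genes with reads, 1.47 CPM per kb, which only Tm7sf2 and Nr1h3 fall short of.

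Among the early steps, the first reactions and the farnesyl diphosphate synthase were high while the kinases and the decarboxylase between them were low. Hmgcs1, which makes HMG-CoA, stood at 29.9 CPM per kb (137.3 CPM, about 2697 reads per library). Acat2, the thiolase that joins acetyl-CoA units, was at 25.7 CPM per kb, and Fdps, the farnesyl diphosphate synthase, was at 30.3. The steps from mevalonate to isopentenyl diphosphate sat lower, with Mvk (mevalonate kinase) at 4.50 CPM per kb, Mvd (mevalonate diphosphate decarboxylase) at 4.90 and Pmvk (phosphomevalonate kinase) at 7.59. Fdps exceeded Mvk by a ratio of 6.74, or 10.6 when not divided by length. Idi1, the isomerase that balances the isoprenoid building blocks, reached 18.8 CPM per kb, and Ggps1, on the branch to geranylgeranyl diphosphate, reached 12.2. All 8 early genes lay above the median of genes with reads, as did most genes of at least 1 CPM. The 3 low genes, Mvk, Pmvk and Mvd, are also the only early genes that neither overlap another gene nor have a near-identical copy. No level was found in these data for the genes that overlap Hmgcs1 and Fdps. The part of shared sequence in this contrast was not tested.

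Among the members, the late steps held both ends of the range of the synthesis enzymes. Cyp51, the lanosterol demethylase, had the highest level of all members per kb of joined exons, 54.6 CPM per kb (241 CPM, about 4734 reads per library). Lss, the lanosterol synthase that supplies its substrate, was at 2.86 CPM per kb, a ratio of 19.1 between consecutive enzymes, which was 13.9 with the longest transcript and 7.81 when not divided by length. Upstream, Sqle (squalene epoxidase, an oxygen-dependent step) stood at 33.3 CPM per kb and Fdft1 (squalene synthase) at 9.06. The enzymes that remove the methyl groups at carbon 4 were graded per kb. Msmo1, the oxidase, was at 26.1 CPM per kb, Nsdhl, the dehydrogenase, at 13.8 and Hsd17b7, the reductase, at 11.1. Not divided by length, Hsd17b7 at 56.7 CPM stood above Nsdhl at 39.4. The closing reactions were close to one another, with Ebp (sterol isomerase) at 15.0 CPM per kb, Sc5d (C5 desaturase) at 13.2 and Dhcr7, which consumes 7-dehydrocholesterol, at 9.03. In undivided CPM their order was Sc5d at 64.0, Dhcr7 at 52.5 and Ebp at 34.7. Lowest of the member enzymes was Tm7sf2 at 0.720 CPM per kb, although its 61.7 reads per library kept it above 1 CPM.

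Tm7sf2 and Lbr encode sterol C14 reductases for the same reaction. Lbr, which is also the lamin B receptor of the inner nuclear membrane, stood at 37.3 CPM per kb, which exceeds Tm7sf2 by a ratio of 51.8. With the length of the longest transcript the ratio was 49.2. Exons of Tm7sf2 share 12.1% of their length with Vps51 on the same strand, which stood at 11.1 CPM against 3.17 CPM for Tm7sf2, so its level is uncertain.

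The genes that sense sterol spanned a wide range. Insig1, itself a well-known SREBP target, stood at 53.2 CPM per kb (164.5 CPM), close to Cyp51, and Insig2 at 26.8, a ratio of 1.99. Scap, the escort that INSIG proteins retain, was at 9.01 CPM per kb, so that Insig1 exceeded it by a ratio of 5.91, 3.85 with the longest transcript or 2.45 when not divided by length. Srebf2, which encodes SREBP2, was at 20.1 CPM per kb and Srebf1, which encodes the SREBP1 isoforms of fatty acid synthesis, at 5.95, a ratio of 3.37. The gene for the cholesterol-directed factor was thus the more abundant of the pair.

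The liver X receptors lay far apart. Nr1h2 (liver X receptor beta) stood at 7.10 CPM per kb. Nr1h3 (liver X receptor alpha) was at 0.363, with 0.912 CPM or about 17.4 reads per library, the lowest of the 32 genes and the one member under 1 CPM. The ratio between them was 19.6, or 25.9 with the longest transcript. Mylip, a liver X receptor target whose product marks lipoprotein receptors for degradation, was at 11.4 CPM per kb.

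For transport and storage, Npc2, the soluble lysosomal carrier, stood at 45.3 CPM per kb (246.6 CPM), behind only Cyp51 and Insig1 per kb among the members. Its membrane partner Npc1 was at 11.1 CPM per kb, a ratio of 4.10. Soat1, which esterifies cholesterol for storage, reached 19.9 CPM per kb, and Stard4, a cytosolic sterol carrier, reached 5.87. Soat2, the second gene for this esterification, was at 0.249 CPM per kb with about 10.3 reads per library, so Soat1 exceeded it by a ratio of 79.9. Not divided by length, this ratio was 353.5 and that of Npc2 over Npc1 was 1.97.

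Over all members, the median was 15.5 CPM per kb for the early steps, 13.5 for the late steps, 10.2 for regulation and 15.5 for transport and storage. On the log2 scale the late steps lay below the early ones by -0.20 and above regulation by 0.40. The order of early and late steps turned with the longest transcript in place of all exons (0.060), so these values do not rank them. Without the 14 members that overlap another gene or have a near-identical copy, an alternative chosen after seeing the data, the early median was 4.90 CPM per kb and the regulatory one 20.1, and the log2 ratios turned to -2.03 for early over regulation and -0.54 for late over regulation. Under the planned choices the early and late medians stayed above the regulatory one. The smallest such log2 ratio was 0.071, for late over regulation not divided by length. With the alternative chosen afterwards included, no order of the early, late and regulatory medians held across these choices. Inside a role the levels spread widely, and the late enzymes alone ran from 0.720 to 54.6 CPM per kb.

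**Figure D2:**
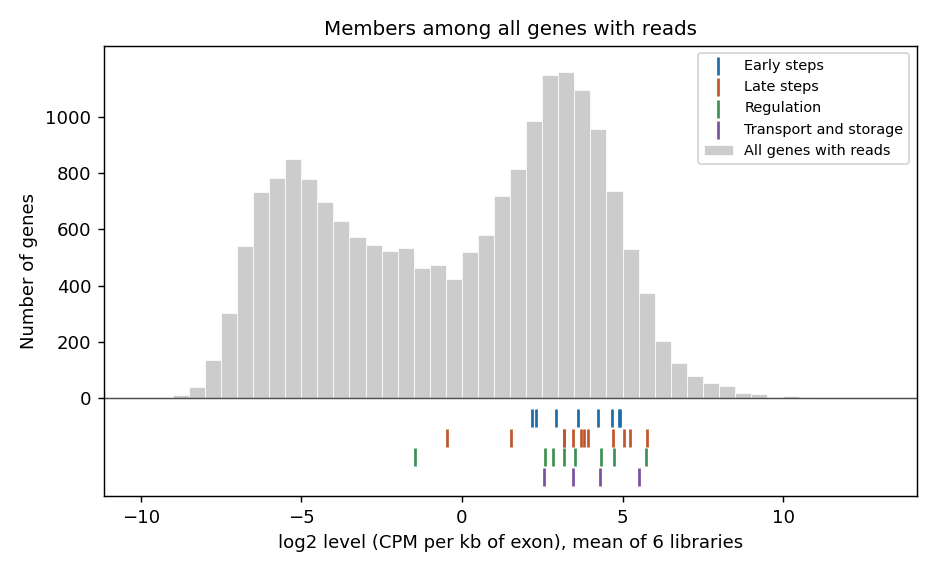
Histogram of the log2 level in CPM per kb for the 19227 genes with reads and an annotated length (vertical axis, number of genes), with a tick for each member below it in a row per role. All members but Tm7sf2 and Nr1h3 lie above a log2 level of 1, and the ticks of the 4 roles overlap.

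Other genes of sterol handling were read from a list of 25, of which 22 reached 1 CPM, with a median of 4.60 CPM per kb. The factors of sterol control in the endoplasmic reticulum had the highest median of the 6 functions listed, 18.1 CPM per kb, and ran from 11.7 CPM per kb for Rnf139 to 33.3 for Aup1. Both proteases that release SREBP had reads, with Mbtps1 at 9.68 CPM per kb and Mbtps2 at 5.03. Among carriers between membranes, Osbp stood at 17.3 CPM per kb and Gramd1c at 1.24. Of the exporters under liver X receptor control, Abca1 was at 4.22 CPM per kb, while Abcg1 was at 0.0269 with about 3.36 reads per library. Lipa, the lysosomal lipase that frees cholesterol from its esters, was at 19.2 CPM per kb. On the isoprenoid branches, Nus1 of dolichol synthesis stood at 32.8 CPM per kb, whereas Idi2, the second isomerase gene, had under 1 read per library on average (0.843).

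The length that divides a level matters for some members. The joined exons exceeded the longest transcript by a ratio between 1.01 for Mvd and 2.07 for Msmo1, with a median of 1.30. With the longest transcript, 7 of the 32 genes moved by 3 or more places, and 7 of the 8 highest stayed among the 8 highest. Without division by length, 5 of the 8 stayed, and Ebp, Scap, Npc1 and Soat1 moved by more than 5 places. Msmo1 rose from 26.1 to 54.0 CPM per kb, Dhcr7 from 9.03 to 18.7 and Npc1 from 11.1 to 21.8, and Npc2 at 74.7 then led in place of Cyp51 at 61.3. Nr1h3, Tm7sf2 and Lss were the 3 lowest with either length.

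**Figure D3:**
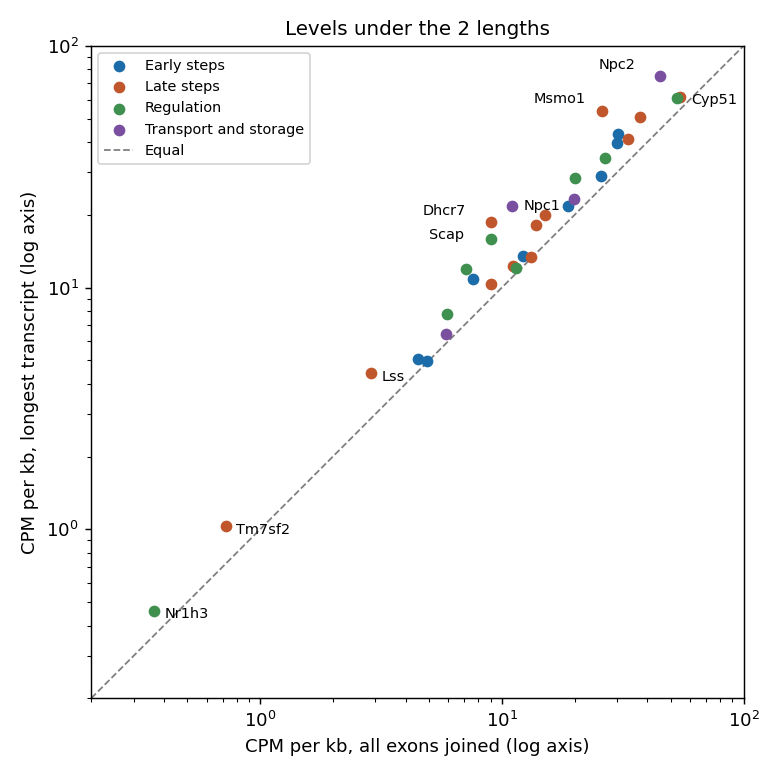
Level of each member in CPM per kb with all exons joined (horizontal log axis) against the same with the longest transcript (vertical log axis), coloured by role. Every gene lies on or above the line of equal values, and Msmo1, Dhcr7 and Npc1 lie farthest from it.

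Some members share sequence with other genes, and how the counting treated strand is not given in the sources used here. Exons of 13 members overlap those of another annotated gene, which cover 18.3% of the exon length of Fdft1 (Ctsb, opposite strand, at 686.1 CPM), 26.7% of Fdps (Gm43738, same strand) and 3.76% of Cyp51 (Akap9, opposite strand, at 174.4 CPM). Transcripts of Acat2, Fdft1, Ggps1 and Idi1 match another gene with at least 95% identity over at least 300 bases. For Acat2, at 65.3 CPM, these are Acat3 over 1477 bases, at 0.534 CPM, and Tcp1 over 445 bases, at 433.1 CPM. For the other 3 genes they are processed pseudogenes. Levels of these members are uncertain to that extent, and its size was not tested. Of the 18 members with neither, Insig1, Npc2 and Sqle had the highest levels per kb of joined exons. With the longest transcript these were Npc2, Insig1 and Msmo1.

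The upstream sequences below stand for both ends of the range. Cyp51 and Insig1 are shown as the 2 highest members per kb of joined exons, and Nr1h3 as the lowest. Npc2 led with the longest transcript and in CPM. Hmgcs1 is shown because, among the 27 members matched to a promoter, it alone had a full match to the sterol regulatory element searched. The Nr1h3 stretch precedes an internal start and lies inside the annotated gene. Each is the stretch of the 250 bases before the RefSeq start that lies in no annotated exon, on GRCm38.p6, 5′ to 3′ on the strand of the gene. Capitals mark the sterol regulatory element TCACNCCAC, the NF-Y box CCAAT and the GC box GGGCGG, on either strand.
Cyp51, chr5:4104747-4104947, minus strand: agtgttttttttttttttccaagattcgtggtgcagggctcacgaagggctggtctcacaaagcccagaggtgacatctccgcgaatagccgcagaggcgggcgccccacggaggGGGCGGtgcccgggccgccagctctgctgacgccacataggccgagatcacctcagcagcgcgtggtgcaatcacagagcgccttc
Insig1, chr5:28071162-28071362, plus strand: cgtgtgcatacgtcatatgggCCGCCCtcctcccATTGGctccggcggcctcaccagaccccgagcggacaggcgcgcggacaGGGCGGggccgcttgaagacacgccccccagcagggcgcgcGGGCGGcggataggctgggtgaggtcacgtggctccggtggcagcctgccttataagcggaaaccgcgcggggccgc
Hmgcs1, chr13:119690101-119690350, plus strand: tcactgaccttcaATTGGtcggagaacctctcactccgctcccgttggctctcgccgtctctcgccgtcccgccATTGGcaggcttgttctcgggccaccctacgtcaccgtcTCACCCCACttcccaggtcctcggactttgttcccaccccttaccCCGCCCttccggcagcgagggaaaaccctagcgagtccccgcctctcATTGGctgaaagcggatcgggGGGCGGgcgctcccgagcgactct
Nr1h3, chr2:91195152-91195366, minus strand: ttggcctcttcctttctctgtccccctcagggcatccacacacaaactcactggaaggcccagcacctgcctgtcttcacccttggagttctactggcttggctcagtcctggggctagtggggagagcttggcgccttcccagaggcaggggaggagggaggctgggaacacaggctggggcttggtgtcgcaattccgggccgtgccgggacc

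Promoter windows of 300 bases, from 250 before to 50 after a start, were matched for 27 of the 32 genes (36 windows). Fdft1, Fdps, Npc1, Sqle and Stard4 were not matched, so their promoters were not searched. The sterol regulatory element was found in 1 of 36 windows (2.78%), that of Hmgcs1, against 1.24% of all 32851 windows. It lay at bases -137 to -129, counted with the start as 0. The NF-Y box was found in 24 of 36 windows (66.7%), against 37.4% of all windows, and the GC box in 27 (75%), against 35.7%. NF-Y and SP1, the factors named for these boxes, are known partners of SREBP on sterol genes. Both boxes lay in the same window in 20 of 36 cases (55.6%), against 12.8% of all windows, among them a window of each of the 10 late enzymes matched, and Mvk held 5 NF-Y boxes in 1 window. Nr1h2 and Nr1h3 held none of the 3 motifs. The member windows were richer in G and C, with a median of 62.6% over the 250 upstream bases against 52.4% for all windows. All windows were counted whether or not their gene had reads. The part of base content and of expression in these shares was not tested. A match describes these letters only and is not a measured binding site. Only full matches to the letters searched were counted, so a window without one may still hold a variant of the element.

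**Figure D4:**
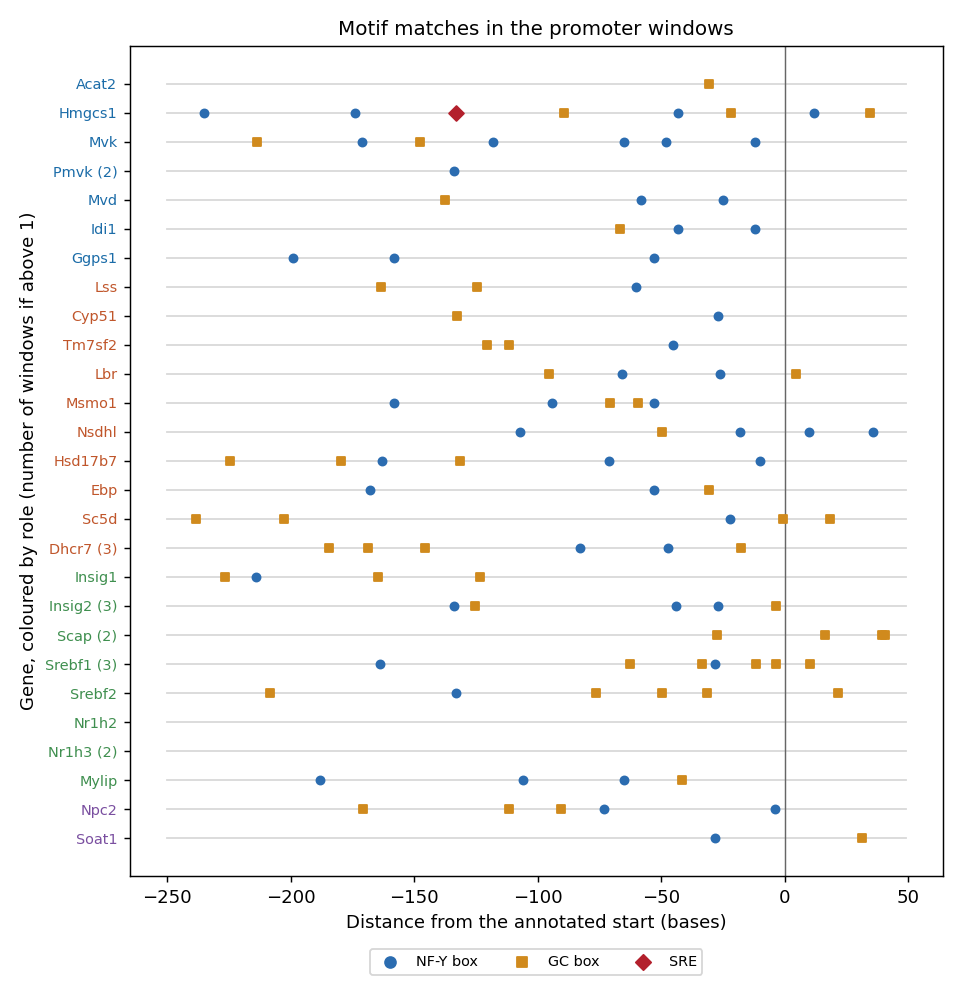
Positions of the sterol regulatory element (SRE), NF-Y box and GC box in the promoter windows of 27 members (horizontal axis, bases from the annotated start, windows of a gene overlaid), with genes coloured by role. The single SRE is that of Hmgcs1, and the rows of Nr1h2 and Nr1h3 are empty.

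The members are scattered over 17 chromosomes. Chromosome 1 carries Insig2, Soat1, Hsd17b7 and Lbr, and chromosome 13 carries Hmgcs1, Idi1, Ggps1 and Mylip, while Ebp and Nsdhl lie on the X chromosome. On GRCm38, Cyp51 spans 4081145 to 4104746 of chromosome 5 on the minus strand and Insig1 spans 28071363 to 28078662 of the same chromosome on the plus strand. Lbr lies on chromosome 1 from 181815335 to 181843046, and Tm7sf2 on chromosome 19 from 6062821 to 6068373, both on the minus strand. Nr1h3 lies on chromosome 2 from 91184061 to 91202834.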

How the data were processed

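RNA-seq of 3 OZO and 3 OLO libraries of B16F10 cells was analysed from one table. According to the methods and the submitters' processing notes, libraries were made with a directional kit, and the authors aligned reads to mm10 with HISAT2 (2.1.0), counted them with featureCounts (2.1.1) and used limma-voom (3.58.1). The log2 values analysed here are the mean expression over all 6 libraries that the authors deposited, in log2 CPM. The 5 further numeric columns hold the authors' own comparison of OZO with OLO (log2 fold change, moderated statistic, p-value, adjusted p-value, log-odds) and were not used. No test was therefore run. The design had foreseen edgeR or limma on single libraries, and these were not used because no values of single libraries were analysed here.

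Genes at the lowest mean were taken as genes without reads (6025 genes), and because voom adds 0.5 reads to every count that mean gives the geometric mean library size. Read numbers per gene are the geometric mean of reads plus 0.5, less 0.5. Their counting error and the spread between libraries are unknown, which limits the precision of low genes such as Nr1h3. Exon lengths came from GENCODE release M21 on GRCm38 (mm10), in which 23906 of 24126 Ensembl identifiers were found. The annotation of the authors' counting is not given in the sources used here. Shared sequence was searched with BLAST (2.17.0), and promoters are those of RefSeq on GRCm38.p6. Calculations were tested on simulated counts. Python 3.11.15, numpy 2.4.6, pandas 2.3.3 and matplotlib 3.10.9 were used.

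Every member was named, and of the other pathway genes those with the highest or lowest level in a function. Members and lists were chosen with earlier results of these data known. A few genes of the planned pathway list are not reported here. Alternatives were another length, no length, limits of 1 CPM and another background. Leaving out members with shared sequence, and a shorter sterol element, were chosen after seeing the data.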

Additional observations from a re-analysis of the deposited data

How the results depend on the processing

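No paired analysis was possible because each gene carries 1 pooled mean of the 6 libraries. Alternatives planned for values per library (another test, pseudocount or filter, leaving out a library, a replicate block) were not run. A value was taken as moved when it changed by over 1.5 times.

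The late steps lay below the early ones by -0.20 on the log2 scale, and this turned to 0.060 with the longest transcript. Without the 14 members that overlap another gene or have a copy, an alternative chosen after seeing the data, only 3 early, 7 late and 5 regulatory genes remained. The early median was then 4.90 CPM per kb and the regulatory median 20.1, and all 3 ratios between roles turned, to 1.49 for late over early, -2.03 for early over regulation and -0.54 for late over regulation. Not divided by length, the medians were 61.5 CPM for early steps, 54.6 for late steps, 52.0 for regulation and 159.9 for transport and storage, by construction in another unit. The median member had 66.0% of genes below it when only genes of at least 1 CPM were the background, in place of 79.7%, and between 79.6% and 83.7% under the other choices. The shorter sterol element CACNCCAC, also chosen afterwards, was in 3 of 36 member windows (8.33%) against 6.24% of all windows. Depth limits Nr1h3, Abcg1, Soat2 and Idi2, whose read numbers are small.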
